A study of Homo sapiens with 7 samples.

Results

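The cytosolic ribosomal protein genes encode the proteins of the large and small subunits of the ribosome that translates nuclear mRNAs. They were chosen by gene symbol, as 57 genes of which 37 belong to the large subunit (RPL and RPLP symbols) and 20 to the small subunit (RPS symbols), out of 36337 gene names on the array. All 57 were found, through 116 probes printed as 134 spots, out of 50599 probes and 58717 spots that were not controls, and the array's description of every member named a ribosomal protein. The samples were 4 replicate cultures of HCT116, a human colon cancer cell line, in a derivative that carries the histone H2B fused to GFP, and every culture had been treated with 10 nM bafilomycin A1 for 30 h. Bafilomycin A1 blocks the vacuolar proton pump that acidifies lysosomes. The labels give 10% serum and 100 ng of RNA per labelling, whereas the methods of the study give 5% serum. The 3 untreated samples of the line were not analysed here. With 1 group there was no contrast to test, and each value below describes treated cells and the spread between the 4 arrays, all of which lay on 1 slide. Nothing in the labels says that the cultures were started separately, so this spread may be technical.

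A ribosome holds 1 copy of most of its proteins, and their genes are transcribed at high and matched rates in growing cells. Transcripts of these genes begin, as a class, with a C followed by a run of pyrimidines, the terminal oligopyrimidine tract. This tract puts their translation under the control of the kinase mTORC1, which is activated on the surface of the lysosome, and of the tract-binding protein LARP1. The arrays measured mRNA and not translation. A few members have a close copy elsewhere in the genome that makes a variant protein, such as RPL3L, the form of RPL3 found in skeletal muscle and heart. Processed pseudogenes of ribosomal protein mRNAs are also common in the human genome.

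The start sites show the feature that names the class. They are printed for some members with long runs, for members of the paralog pairs, and for RPL3 just outside the limit used. A tract was counted where the annotated first base was C and at least 5 pyrimidines in a row began there. Of the 57 members, 47 were matched by symbol in the RefSeq table of start sites (GRCh38.p14), and 33 of these (70.2%) had a tract at 1 or more annotated starts. The share over all 27305 genes of the table was 5.14%. C as the first base, with no demand on the bases that follow, was annotated for 36 of the 47 members and for 18.0% of all genes. Of the ribosome assembly genes, the factors that build the subunits, 56 were in the table and 5 had a tract. Each line below runs from 10 bases before the annotated start to 20 bases from it, 5′ to 3′, and capitals mark the pyrimidine run that begins at the start.
RPL7A, chr9:133348208-133348237, plus strand: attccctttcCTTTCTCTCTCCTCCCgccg
RPLP2, chr11:809957-809986, plus strand: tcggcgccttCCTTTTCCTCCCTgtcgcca
RPL31, chr2:101002279-101002308, plus strand: ccttcgcgctCTTCCTTTCCaacttggacg
RPL22, chr1:6199576-6199605, minus strand: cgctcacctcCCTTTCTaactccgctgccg
RPL22L1, chr3:170870176-170870205, minus strand: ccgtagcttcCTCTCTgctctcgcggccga
RPS27, chr1:153990752-153990781, plus strand: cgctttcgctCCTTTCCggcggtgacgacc
RPL3, chr22:39319604-39319633, minus strand: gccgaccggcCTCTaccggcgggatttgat
RPS27L, chr15:63157458-63157487, minus strand: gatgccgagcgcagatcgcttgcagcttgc
The run of RPL7A, 16 bases, was the longest among the members with C as the first base. RPL22 and its paralog RPL22L1 both had a tract, with runs of 7 and 6 bases. RPS27 had a run of 7 bases, while the annotated start of RPS27L was not a pyrimidine. RPL3 lay just outside the limit with a run of 4 bases, and its paralog RPL3L was not among the matched members. An annotated start need not be the start used in HCT116 cells, and a match is a description of the letters only.

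Nearly all ribosomal protein genes gave a clear signal in the bafilomycin A1 cultures. Detection of a probe on an array required that the scanner software called more than 50% of its spots well above the local background, and a gene needed 1 probe detected on all 4 arrays. By this rule 56 of 57 members were detected, 36 of 37 in the large subunit and all 20 in the small subunit, against 54.2% of all gene names. Of the 116 member probes, 113 were detected on all 4 arrays, against 50.7% of all probes. The gene not detected was RPL39L, the paralog of RPL39 known from testis, whose probe was well above background on no array. Its background-subtracted signal was at or below 0 on replicates 1 and 3, and its normalized log2 signal was -4.57 on replicate 2 and -2.15 on replicate 4. No member spot was saturated on any array (0 spots).

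The cell line markers were read in the same way. Of 9 markers of colon epithelium 8 were detected, among them EPCAM and KRT19, and VIL1 was well above background on no array. Of 5 fibroblast markers 1 was detected (COL1A1, 2.62 to 3.26), while no array called COL1A2, LUM or PDGFRB well above background. Of the leukocyte markers PTPRC ranged from -3.51 to -0.79 and CD3E from -0.48 to -0.14, both detected, and CD14 was detected but had no value on replicates 2 and 3. The share of all spots well above background ran from 55.6% to 60.4% per array. The software marked 514 to 725 spots as outlying on replicates 1, 2 and 4 and 2249 on replicate 3.

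Values below are normalized log2 signals: the background-subtracted intensity on the log2 scale, minus the median of the array, with the median taken over the probes of a gene. They are relative to the array median, so they do not measure RNA per cell. A probe's level depends on its own sequence, so levels are not ranked between genes or probes, and comparisons are made between arrays within a gene. Marked spots and signals at or below 0 had no value on that array. For this reason RPL12 had no value on replicate 1 and RPS3 none on replicate 3, which left 54 detected members with 4 values.

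With the processing described above, the ribosomal protein genes varied little between the 4 cultures. The median SD over the 54 members was 0.13 (n = 4 arrays), against 0.21 over the 19162 detected genes with 4 values. Of these 54 members 48 had an SD below 0.21. The highest and the lowest array lay more than 1.4-fold apart in 5 members (RPL22, RPS14, RPS21, RPS27 and RPS28), against 46.6% of all detected genes with 4 values. The threshold of 1.4-fold is the one the study uses for a changed gene. Brightness moved with this difference: 39 of the 54 members had a mean above 10, and the 227 detected genes above that level, members included, had a median SD of 0.13 as well. This level was chosen after the values had been seen, and the part of brightness in the low SD of the members was not tested.

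Replicate 3 was the highest array in most members. This held for 45 of 54 members, against 48.4% of all detected genes with 4 values. Replicate 1 was the lowest in 33 of 54 members, against 26.8% of all detected genes with 4 values. The median deviation of the members from their own 4-array means was -0.09, -0.03, 0.17 and -0.02 on replicates 1 to 4. Over all detected genes it was -0.03, 0.03, 0.10 and -0.10. Over the 227 genes with a mean above 10 it was -0.09, -0.05, 0.17 and -0.03, and 182 of them (80.2%) were highest on replicate 3. The 8 spike-in RNAs that were well above background on all arrays, which are added to each labelling and do not come from the cells, deviated by 0.28 ± 0.10 on replicate 3 (mean and SD over the 8 RNAs) and by -0.17 to 0.04 on the other arrays. With quantile normalization after normexp background correction, which gives every array the same distribution, 21 of 54 members were highest on replicate 3, against 36.5% of all detected genes with the same processing, and the median deviation there was 0.01 in the members and 0.003 over all detected genes. The part of the array as a whole in the values of replicate 3 was not tested.

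**Figure D1:**
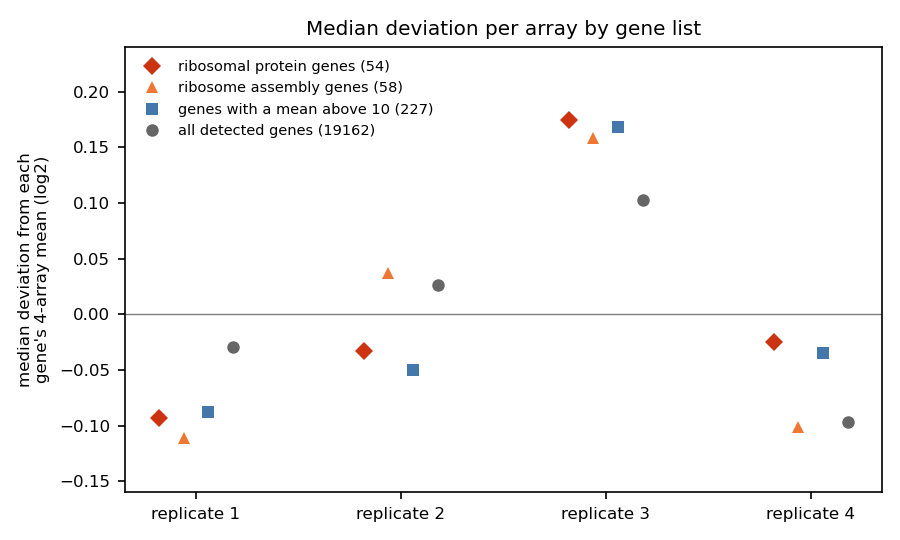
Median deviation from each gene's own 4-array mean (log2 scale, vertical axis) on each array (horizontal axis) for 4 sets of detected genes with 4 values, with the number of genes in parentheses. On replicate 3 the ribosomal protein genes (0.17), the ribosome assembly genes (0.16) and the genes with a mean above 10 (0.17) lay above all detected genes (0.10).

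Taken by mean and not by median, the members gave another picture. The mean over the 54 members deviated by -0.05, 0.01, 0.03 and 0.02 on replicates 1 to 4, an SD of 0.04 between arrays. The small subunit deviated by a mean of -0.19 on replicate 3 where the large subunit deviated by 0.15, a difference of 0.34. The medians on replicate 3 were 0.18 in the small and 0.17 in the large subunit, a difference of -0.002 with the opposite sign. The difference of the means came from RPS21 and RPS27, described below, and without these genes it was -0.04 and the list mean deviated by 0.16 on replicate 3. The median is therefore given first here, a choice made after the values had been seen. Replicate 3 was the highest in 29 of 35 large subunit members and in 16 of 19 small subunit members.

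**Figure D2:**
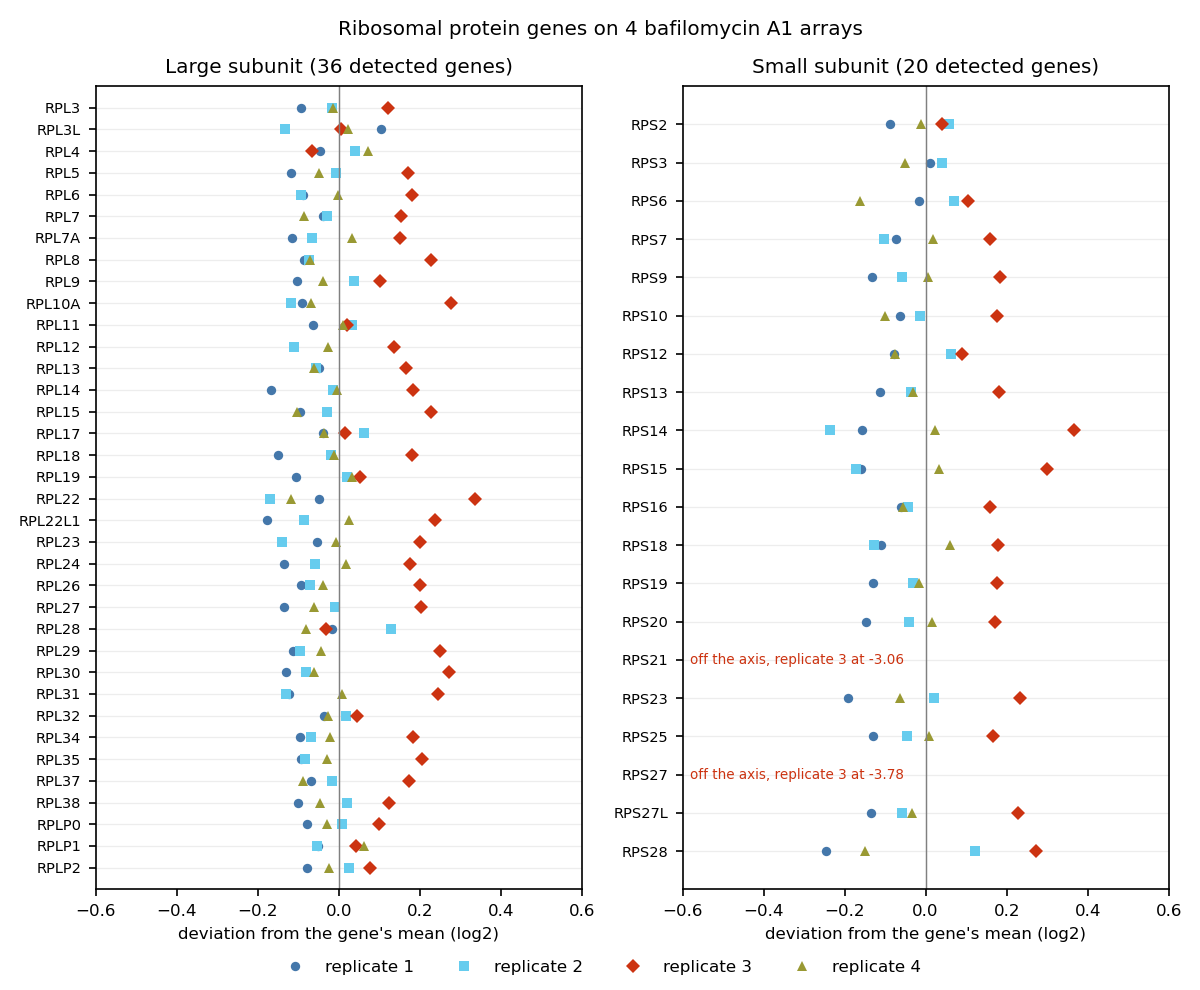
Deviation of each detected member from its own mean over the arrays (log2 scale, horizontal axis), by gene (vertical axis), for the large and the small subunit, with 1 symbol per replicate. Red diamonds, replicate 3, lie to the right in most genes. RPS21 and RPS27 fall outside the axis, with replicate 3 at -3.06 and -3.78, and RPL12 and RPS3 have 3 values.

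The proteins of the ribosomal stalk, the flexible arm that recruits and activates translation factors, were among the steadier members. RPLP0, the base of the stalk, had values of 11.78, 11.87, 11.96 and 11.83 on replicates 1 to 4 (mean 11.86 ± 0.08, SD, n = 4). RPLP1 read 11.75, 11.74, 11.84 and 11.86 (SD 0.06), with the highest value on replicate 4. RPLP2 read 11.94, 12.04, 12.09 and 11.99 (SD 0.07). Each of the 3 genes stayed within 0.18 between its lowest and highest array. RPL12, which sits at the foot of the stalk beside RPLP0, read 12.00, 12.25 and 12.09 on replicates 2 to 4 (SD 0.13, n = 3), with replicate 3 above the other two.

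RPL5 and RPL11 bind the 5S ribosomal RNA and, when ribosome assembly is disturbed, bind MDM2, the ubiquitin ligase of p53. RPL11 had 1 of the smallest spreads, with values of 10.94, 11.03, 11.02 and 11.01 (SD 0.04). RPL5 read 10.42, 10.53, 10.71 and 10.49 (SD 0.12). Replicate 1 was the lowest array in both genes, and replicate 3 was the highest in RPL5 but not in RPL11.

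Several members line the tunnel through which the growing peptide leaves the large subunit. RPL4, which reaches into the tunnel wall, read 10.67, 10.76, 10.66 and 10.79 (SD 0.07). RPL17, at the tunnel exit, read 9.85, 9.95, 9.90 and 9.85 (SD 0.05), but 1 of its 4 probes had a marked spot on replicate 3. With marked spots kept it read 10.21 on replicate 3, its highest array, with an SD of 0.17, and with only probes valued on every array the SD was 0.21. RPL31, also at the exit, read 10.23, 10.22, 10.60 and 10.36 (SD 0.18). This median is lowered by 1 of its 4 probes, which was well above background on no array. The middle 1 of its 3 detected probes, at chr2:101622437-101622496, read 11.15, 11.24, 11.57 and 11.37. Replicate 3 was the lowest array in RPL4 and the highest in RPL31. RPL26 and RPL35, further proteins of the exit, were highest on replicate 3, with SDs of 0.14 each. RPL19, which forms a bridge between the subunits, had its lowest value of 12.05 on replicate 1 and values of 12.18 to 12.21 on the other arrays.

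RPL3 lies close to the peptidyl transferase centre, the site where peptide bonds form, and read 11.52, 11.60, 11.74 and 11.60 (SD 0.09). Its paralog RPL3L read 1.57, 1.33, 1.47 and 1.49 (SD 0.10) and was well above background on all 4 arrays. The order of the arrays differed between the paralogs: RPL3 was highest on replicate 3 and RPL3L on replicate 1. RPL32 had the smallest SD of all detected members, 0.04, with values of 7.52, 7.58, 7.61 and 7.54. Its gene value is the midpoint of its 2 probes, of which the probe at chr3:12877562-12877621 read 11.55, 11.47, 11.81 and 11.56 and the probe at chr3:12881814-12881873 read 3.50, 3.68, 3.41 and 3.51. The probes moved in opposite directions on replicates 2 and 3 and so cancelled in the midpoint.

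RPL22, a protein of the large subunit surface that also binds viral and cellular RNAs, spanned 1.42-fold, with values of 8.56, 8.44, 8.94 and 8.49 (SD 0.23, or 0.08 with the mean over its probes). RPL22L1 read 10.72, 10.81, 11.14 and 10.92 (SD 0.18). Both paralogs were highest on replicate 3. RPL22 has 3 probes, and their deviations on replicate 3 differed by 0.64, the widest disagreement between probes of any member. The probe at chr1:6246356-6246415 read 8.56, 8.44, 8.98 and 8.49, and that at chr1:6246039-6246098 read 5.15, 5.49, 4.84 and 5.00, so 1 was highest and the other lowest on replicate 3. The array's file places the remaining RPL22 probe on chromosome 14 (chr14:77352724-77352783), while RPL22 lies on chromosome 1. It was the only member probe (1 of 116) listed on another chromosome than its gene, and it read 8.71, 8.71, 8.94 and 8.76. The gene value of RPL22 was that of this probe on replicate 3. On the other arrays it was that of the probe at chr1:6246356-6246415.

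RPL8, RPL10A, RPL13 and RPL30 of the large subunit and RPS16 of the small subunit each had replicate 3 apart from the other arrays by Dixon's ratio, the gap of the outermost value over the whole range. RPL8, close to the peptidyl transferase centre, read 11.52, 11.54, 11.84 and 11.54. RPL10A, part of the mobile L1 stalk, read 11.34, 11.31, 11.71 and 11.36. RPL13 read 11.11, 11.10, 11.33 and 11.10. In these 3 genes the other arrays lay within 0.05 of one another. RPS16, whose tail reaches the tRNA in the P site of the small subunit, read 11.41, 11.43, 11.63 and 11.42. RPL30 was a borderline case, with a ratio only just above the limit for being apart. With marked spots kept RPL30 read 10.93, 10.98, 11.30 and 11.02, and replicate 3 was no longer apart. RPS21 and RPS27 had replicate 3 apart on the low side, which made 7 members of 54 with 1 array apart, against 8.55% of all detected genes with 4 values. By chance this ratio marks about 5% of genes.

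RPL30 and RPLP0 offer a view of the error within an array, because 1 probe of each was printed as 10 spots. For RPL30 the spot means were 10.93, 10.98, 11.33 and 11.00, with SDs between the spots of an array of 0.05 to 0.10 (n = 9 or 10 spots after marked spots were left out). The SD between the 4 arrays was 0.18. Among the spots used, the lowest on replicate 3 read 11.24 and the highest on any other array 11.11. A marked spot was left out on replicate 3 and on replicate 4 (9 spots used on each). With these spots kept, the probe's value on replicate 3 fell from 11.34 to 11.30, and on replicate 4 it rose from 11.00 to 11.02. The separation of replicate 3 therefore holds only for the spots used. For RPLP0 the spot means were 11.32, 11.42, 11.56 and 11.35, the SDs between spots 0.09 to 0.13 and the SD between arrays 0.11. The RPLP0 spots of replicate 3 ran from 11.42 to 11.74 and overlapped with those of all other arrays. Spots of 1 array share a culture and a labelling and are not replicates of the treatment.

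**Figure D3:**
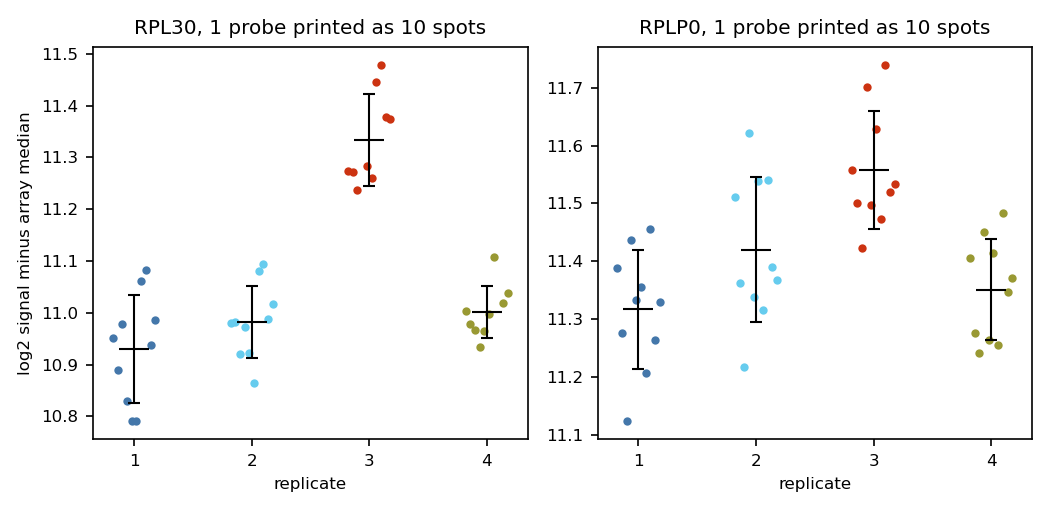
Normalized log2 signal (vertical axis) of the 10 spots of the RPL30 probe and of the RPLP0 probe on each array (horizontal axis), with 1 point per spot used and bars for the mean and SD over spots. The RPL30 spots used on replicate 3 (11.24 to 11.48) lie above those used on the other arrays, whereas the RPLP0 spots overlap. Marked spots are not drawn.

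In the small subunit, RPS2 and RPS3 sit at the entry of the mRNA channel. RPS2 read 11.86, 12.00, 11.98 and 11.93 (SD 0.07) over 6 probes. RPS3 read 9.73, 9.76 and 9.67 on replicates 1, 2 and 4 (SD 0.05, n = 3). Both were among the 6 members with the smallest SD, together with RPL11, RPL17, RPL32 and RPLP1, where RPL17 owes its place to the marked spot described above. With centring on all probes the SD was 0.13 in RPS2, 0.13 in RPL11, 0.11 in RPL32 and 0.16 in RPLP1, so these small SDs depend on how the arrays are centred. RPS2 did not show the pattern of most members and was highest on replicate 2. RPS3 had no value on replicate 3, so it could not be compared with that pattern. With marked spots kept RPS3 read 9.73, 9.76, 9.68 and 9.68. RPS23, which reaches the decoding centre, read 8.34, 8.56, 8.77 and 8.47 (SD 0.18). These values are midpoints of 2 probes. The probe at chr5:81572318-81573551 read 10.91, 11.10, 11.18 and 10.92, and that at chr5:81569290-81569349 read 5.78, 6.01, 6.36 and 6.02.

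RPS6, the substrate of the S6 kinases that act below mTORC1, read 6.20, 6.29, 6.32 and 6.06 (SD 0.12). This gene value is the midpoint of 2 probes. The probe of the RefSeq mRNA at chr9:19376306-19376365 read 11.92, 12.02, 12.07 and 11.96, and a probe designed on another Ensembl transcript read 0.48, 0.56, 0.58 and 0.15. On replicate 4 the RefSeq probe lay between the other arrays, while the Ensembl probe was at its lowest. RPS19 and RPS14, whose loss of 1 copy is known from Diamond-Blackfan anaemia and from the 5q- syndrome, were both highest on replicate 3. RPS19 read 11.44, 11.54, 11.75 and 11.56 (SD 0.13). RPS14 read 9.70, 9.62, 10.22 and 9.88 (SD 0.27) and spanned 1.52-fold. These are the values of 1 of its 3 probes, the middle one on every array. The RefSeq probe at chr5:149826459-149826518 read 11.14, 11.21, 11.41 and 11.19 (SD 0.12). The Ensembl probe had an SD of 0.18. All 3 probes were highest on replicate 3. RPS14 had the largest SD of the members with 4 values apart from RPS21 and RPS27. RPS15, in the head of the small subunit, read 11.00, 10.99, 11.46 and 11.19 (SD 0.22).

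RPS21 and RPS27 had the largest spread of all members, and in both the gene value fell on replicate 3 where a probe had no value. RPS21 read 10.60, 10.60, 6.53 and 10.65 (SD 2.04), and RPS27 read 10.91, 10.93, 5.94 and 11.09 (SD 2.52). Each has 3 probes, and on replicate 3 the software marked the spot of 1 of them because its local background stood out. The median over 3 probes became the midpoint of the remaining pair. With the marked spots kept, RPS21 read 10.79 and RPS27 read 11.28 on replicate 3, and the SDs were 0.09 and 0.17. RPS28 also lost 1 of its 2 probes, on replicates 2 and 3, and read 11.61, 11.98, 12.13 and 11.71 (SD 0.24). Its probe without marks read 11.89, 11.98, 12.13 and 11.98 (SD 0.10), and the gene's SD was 0.12 with marked spots kept. Of the 10 marked spots of members over the 4 arrays 6 were on replicate 3, and 8 of the 10 were marked for the local background only. With marked spots kept, 2 members spanned more than 1.4-fold and 4 had 1 array apart.

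**Figure D4:**
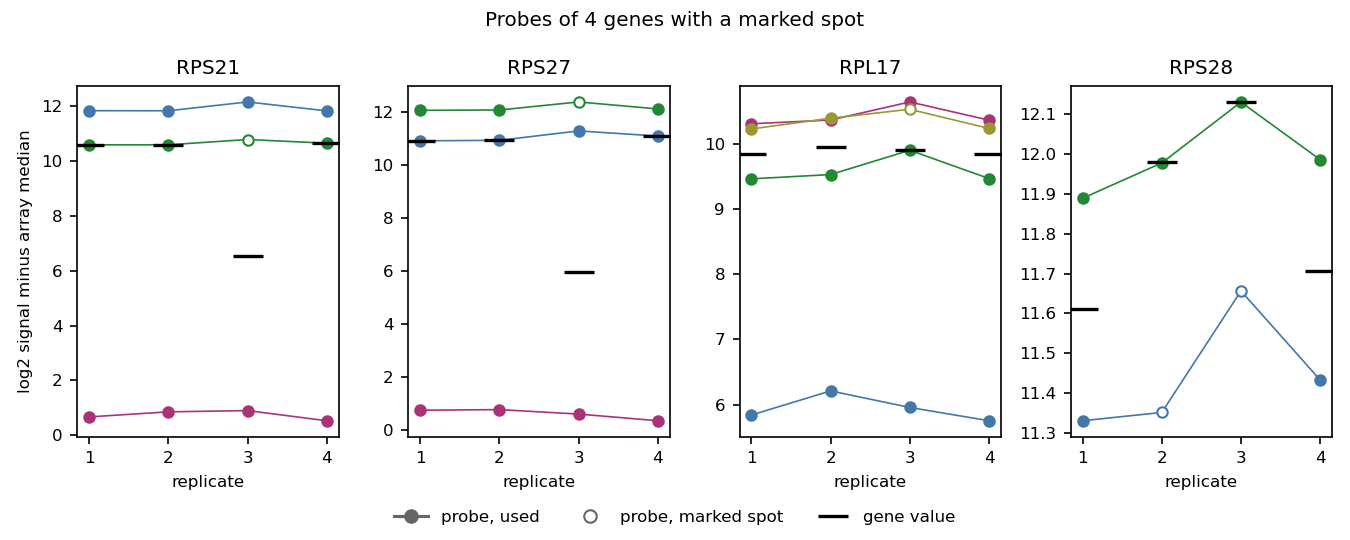
Normalized log2 signal (vertical axis, a separate scale per gene) of each probe of RPS21, RPS27, RPL17 and RPS28 on each array (horizontal axis), with 1 coloured line per probe. Open circles are marked spots, which had no value in the gene's median, and black bars are the gene values. The bars of RPS21 and RPS27 fall to 6.53 and 5.94 on replicate 3, while none of the probe lines do.

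RPS27L, a paralog of RPS27 that is known as a target of p53, read 8.69, 8.77, 9.05 and 8.79 (SD 0.16). Replicate 3 was its highest array. RPS27 has 2 probes without a marked spot, which ordered the arrays differently. The Ensembl probe at chr1:153963726-153963785 read 0.74, 0.76, 0.59 and 0.34, with replicate 2 highest. The RefSeq probe at chr1:153964560-153964619 on the plus strand read 10.91, 10.93, 11.28 and 11.09, with replicate 3 highest. This RefSeq probe shared a run of 40 bases with a probe that the array's file names RGS4, a regulator of G protein signalling, at chr1:163045450-163045509. The RGS4 probe read 10.98, 11.03, 11.31 and 11.10 and was well above background on all 4 arrays, whereas the other RGS4 probe of the array was well above background on none. The windows below are shown because they cross the end of the shared run. Capitals mark the unbroken shared run, beyond which lower-case bases can still match. In this pair of windows only the first lower-case base differs. Positions in each probe are counted from 1 at its first base.
RPS27 probe, bases 31 to 60: AGTGGGAAACCATCTCAATAAacacatttt
RGS4 probe, bases 20 to 49: AGTGGGAAACCATCTCAATAAgcacatttt
In both probes replicate 1 was the lowest and replicate 3 the highest array. Whether RPS27 RNA binds the RGS4 probe was not tested.

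**Figure D5:**
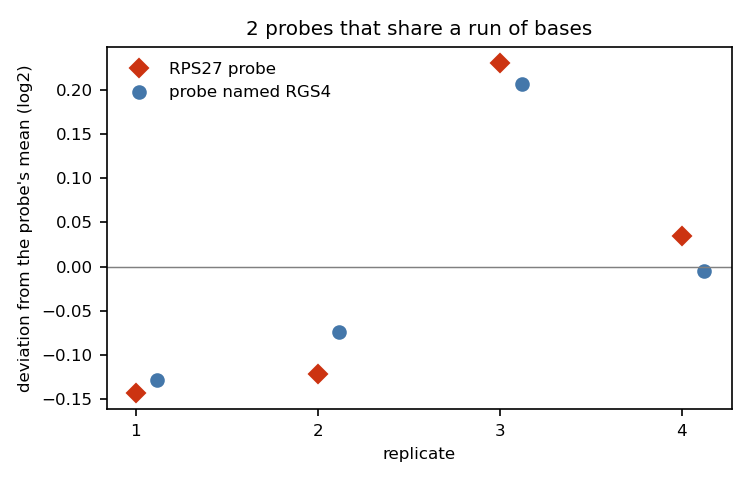
Deviation from the probe's own 4-array mean (log2 scale, vertical axis) on each replicate (horizontal axis) for the RPS27 probe and the probe named RGS4, which share 40 bases. The order of the arrays is the same in both, with replicate 1 lowest, then replicates 2 and 4, and replicate 3 highest.

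A run of at least 25 shared bases linked member probes to a probe of another name in 5 pairs and to a further probe of the same gene in 7 pairs, over 5 genes (RPL26, RPL29, RPL31, RPS2 and RPS28). Besides RPS27 and RGS4, the RPS10 probe at chr6:34385237-34385296 shared 28 bases with a probe of the pseudogene RPS10P7 at chr1:201489664-201489723. RPS10P7 read 9.35, 9.32, 9.34 and 9.30, and the RPS10 probe read 11.22, 11.32, 11.52 and 11.35. The RPS10 probe spanned 0.30 over the arrays with replicate 3 highest, while the RPS10P7 probe stayed within 0.05. Their windows are printed in the same way, across the end of the shared run, because this pair of probes did not move together.
RPS10 probe, bases 9 to 38: CAGTAAAATTGGAGAGGATTcttttgcatt
RPS10P7 probe, bases 10 to 39: CAGTAAAATTGGAGAGGATTattatgcgat
The remaining pairs linked RPS12 (35 shared bases), RPL23 (27) and RPL7 (25) to probes without a gene symbol. The probe paired with RPS12 read 0.01 to 0.57. The probe paired with RPL23 read 1.19 to 1.62, with no value on replicate 3, and the probe paired with RPL7 read 9.16 to 9.37. Whether RNA of these members binds those probes was not tested. Probes that share bases in this way can share RNA, so the values of these members are less certain than a level for 1 gene.

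Where a member had several probes, their deviations on an array were set side by side. Among the 33 members with 2 or more probes that were detected and had values on all 4 arrays, 85 probes in all, the range of the probes' deviations on an array had a median of 0.10 over genes and arrays. All probes of a gene deviated in 1 direction in 28, 17, 27 and 15 of the 33 genes on replicates 1 to 4. Over all 4180 genes with several such probes the shares were 57.8%, 49.7%, 53.7% and 71%, so the members lay above the general share on replicates 1 and 3, near it on replicate 2 and below it on replicate 4. On replicate 3 all probes of a gene lay above their own means in 27 of the 33 genes, against 40.9% of the 4180. The number of probes per gene was not matched in these shares. Probe by probe, 91 of the 106 detected member probes with 4 values were highest on replicate 3, against 50.4% of all such probes. Of the member probes with a mean above 10 these were 69 of 75, and of the other member probes 22 of 31. The median SD was 0.13 over the member probes and 0.20 over all such probes.

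Probes for particular transcripts accounted for the remaining gaps in detection. Of the 116 member probes 108 were designed on RefSeq mRNAs and 8 on Ensembl transcripts. RPL31 has an Ensembl probe at chr2:101620882-101620941 that was well above background on no array, beside 3 probes that were well above background on all 4. RPL28 is annotated with several transcript variants and has 4 probes. The probe at chr19:55898336-55898395 was well above background on 2 arrays and read -1.58, -1.11, -2.94 and -1.89, and the probe at chr19:55899332-55899391 read 11.15, 11.16, 11.53 and 11.36 and was well above background on all 4. The gene value of RPL28 was 4.66, 4.81, 4.65 and 4.60 (SD 0.09) and rests on which variants the array holds. RPL37 and RPS20 have gene values that are likewise midpoints of 2 probes, from 6.26 to 6.53 for RPL37 and from 5.76 to 6.08 for RPS20.

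The genes for building ribosomes, a list of 62 nucleolar and cytoplasmic assembly factors, were read beside the proteins themselves. By symbol 61 were found, without EFL1. All 61 were detected on the 4 arrays, against 54.2% of all gene names. The 58 with 4 values had a median SD of 0.16, against 0.21 over all detected genes with 4 values. Of the 58, 14 spanned more than 1.4-fold, against 46.6% of all detected genes with 4 values. Replicate 3 was the highest array in 41 of the 58, against 48.4% of all detected genes with 4 values. The median deviations of the assembly genes were -0.11, 0.04, 0.16 and -0.10 on replicates 1 to 4. On replicate 3 these genes deviated by about as much as the ribosomal proteins, and on replicate 4 their median deviation was close to that of all detected genes.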

How the data were processed

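Total RNA of 4 bafilomycin A1 cultures was measured on single-colour Agilent arrays, 1 array each. The files the authors deposited, from Agilent Feature Extraction 10.7.3.1 per the labels, hold background-subtracted, processed, mean and background intensity values per spot on a linear scale. The arrays had not been normalized to one another. Flags in the same files tell which spots the software took as saturated, outlying or well above background. Probe coordinates are GRCh37, and start sites come from RefSeq (GRCh38.p14). The number of arrays limits the precision.

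As in the study's methods, the background-subtracted intensity was log2 transformed, the array median was subtracted (over non-control probes with a positive signal) and each gene was given the median of its probes. Control spots, spots with any of the 4 outlier flags and signals at or below 0 were left out, and spots of a probe were averaged, steps that the methods do not describe. Detection used the flag over all non-control spots. A version that leaves marked spots out of detection as well loses RPL12 and RPS3 and gives 19083 in place of 19691 detected gene names. Both versions had been computed before the first was settled on, because a marked local background is no sign of a missing signal.

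The members and lists were chosen with earlier results of these data known. Genes were named by rule: RPL30, the paralogs RPL3 and RPL3L, RPL22 and RPL22L1, RPS27 and RPS27L, and RPL39L, members not detected, the 6 members with the largest and the 6 with the smallest SD, members with a detected and an undetected probe, and members with 1 array apart by Dixon's ratio. Other members were added by their role in the ribosome. The lengths of 25 shared bases, 5 pyrimidines and a mean above 10 were set after the values had been seen. Replicates were numbered as in the labels. The code was tested on simulated data. As alternatives, the main steps were replaced by the processed signal (minus its 75th percentile), normexp (offset 50) with quantile normalization in limma 3.58.1, only detected probes, marked spots kept, only probes with a value on every array, centring on all probes, the mean over probes, other detection flags, or each array was left out. Software was R 4.3.3, Python 3.11.15, matplotlib 3.10.9, scipy 1.17.1, pandas 2.3.3 and numpy 2.4.6.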

Additional observations from a re-analysis of the deposited data

Results flagged for a closer look

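In 7 of 54 detected members with 4 values, 1 array lay apart from the others by Dixon's ratio, and in all 7 it was replicate 3. By chance the ratio marks about 1 in 20 groups. Over all 19162 detected genes with 4 values it marked 1639 (8.55%). In 845 of those 1639 genes replicate 3 was apart on the high side. Replicate 3 was apart on the high side in RPL8 (11.84), RPL10A (11.71), RPL13 (11.33), RPL30 (11.34) and RPS16 (11.63), with ratios of 0.83 to 0.95. It was apart on the low side in RPS21 (6.53) and RPS27 (5.94), the genes in which a probe with a marked spot had no value on that array. The ratio of RPL30 was only just above the limit, and with marked spots kept RPL30 had no array apart. The mean deviation of the large subunit members minus that of the small subunit members was 0.34 on replicate 3, also apart from the other arrays (-0.13 to -0.09). The same difference of medians was -0.002 there and was not apart.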

How the results depend on the processing

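With 1 group and no contrast, no call could be lost. A value counted as moved where it changed beyond the SD of its leave-one-out values, a deviation beyond its SD between arrays, and a count beyond 1.5-fold. The number of detected members was 56 with each array left out and with the flag for positive and significant signal, 54 where every probe of a gene had to be detected and 54 with marked spots left out of detection. The median SD of the members, 0.13, was 0.060 with normexp and quantile normalization and 0.20 with centring on all probes. Over all detected genes it was 0.21, and 0.11 and 0.22 with these 2 settings. The number of members spanning more than 1.4-fold, 5, was 2 with normexp and quantile normalization, 2 with marked spots kept, 2 with only probes valued on every array, 13 with centring on all probes and 3 without RPS21 and RPS27. The number with 1 array apart, 7, was 2 with the processed signal, 4 with normexp and quantile normalization, 4 with marked spots kept and 2 with centring on all probes. The number highest on replicate 3, 45, was 21 with normexp and quantile normalization. The median range of probe deviations, 0.095, was 0.079 with the processed signal and 0.083 with normexp and quantile normalization. The SD of the list mean, 0.036, was 0.085 with the processed signal, 0.075 with normexp and quantile normalization, 0.11 with marked spots kept, 0.11 with only probes valued on every array, 0.13 with centring on all probes, 0.071 with the mean over probes and 0.11 without RPS21 and RPS27.

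The deviation of the list mean was, on replicate 1, 0.017 with normexp and quantile normalization, -0.095 with marked spots kept, -0.093 with only probes valued on every array, -0.15 with centring on all probes and -0.096 without RPS21 and RPS27. Replicate 2 gave -0.055 with the processed signal, 0.045 with normexp and quantile normalization, -0.044 with marked spots kept, -0.041 with only probes valued on every array, -0.059 with centring on all probes and -0.037 without RPS21 and RPS27. Replicate 3 gave -0.046 with the processed signal, -0.11 with normexp and quantile normalization, 0.16 with marked spots kept, 0.16 with only probes valued on every array, 0.096 with the mean over probes and 0.16 without RPS21 and RPS27. Replicate 4 gave 0.13 with the processed signal, -0.022 with marked spots kept, -0.031 with only probes valued on every array, 0.15 with centring on all probes, -0.022 with the mean over probes and -0.028 without RPS21 and RPS27. The large minus small subunit difference on replicate 3 was -0.016 with marked spots kept, -0.020 with only probes valued on every array, 0.091 with the mean over probes and -0.038 without RPS21 and RPS27. The median deviation of the members was 0.013 on replicate 3 with normexp and quantile normalization and 0.10 on replicate 4 with centring on all probes.

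Leaving out each array in turn gave a median SD of 0.062 to 0.15, 0 to 5 members spanning more than 1.4-fold, an SD of the list mean of 0.014 to 0.044 and a median range of probe deviations of 0.069 to 0.093. The lowest median SD and the 0 members over 1.4-fold were those without replicate 3. The SD of a single gene moved in 49 of 56 members with normexp and quantile normalization, in 45 without replicate 3 and in 36 with centring on all probes. Leaving out RPS21 and RPS27, the median deviations and the number highest on replicate 3 were added after seeing the data. The causes of these changes were not tested, except where a marked spot removed a probe. No paired analysis was possible because the untreated samples with the same replicate numbers were not analysed here.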
